A study of Homo sapiens with 16 samples.

Results

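Cholesterol and fatty acid synthesis was followed through 34 genes, chosen by symbol as members of the pathway from the 25369 genes of the count table. They comprise 18 genes for enzymes between acetyl-CoA and cholesterol, 5 genes for proteins that sense or move sterols, 8 genes of fatty acid synthesis and 3 genes of sterol export and uptake control. Cells make cholesterol from acetyl-CoA through mevalonate, squalene and lanosterol, and make fatty acids from the same acetyl-CoA through malonyl-CoA. When membrane sterol is low, SCAP escorts the SREBP transcription factors from the endoplasmic reticulum to the Golgi, where they are cut and released to the nucleus, and when sterol is plentiful the INSIG proteins hold SCAP back. Sterol surplus is met by the LXR receptors, which raise export pumps such as ABCA1.

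Poly(A)-selected RNA was sequenced from TPC1 and K1, 2 lines derived from papillary thyroid carcinoma. Each line received vehicle (0.2% DMSO), 10 µM nutlin-3a (nutlin, which keeps MDM2 from binding p53), 25 µM GSK2830371 (an inhibitor of the phosphatase PPM1D), or both drugs for 24 h, with 2 libraries in each of the 4 groups of a line and 16 libraries in all. TPC1 was grown in RPMI and K1 in DMEM, both with fetal bovine serum, and K1 derives from the line GLAG-66. The comparisons ask how the inhibition of these repressors of p53, alone and together, changed the transcripts of each line.

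The libraries held 30789887 to 76648552 counted reads in TPC1 and 28888686 to 37161241 in K1. Levels are given as CPM, read counts scaled by TMM to a common library size, which allows a gene to be compared between libraries but not with another gene. The 2 TPC1 libraries of a group carry the replicate numbers 1 and 3 in the count table and those of K1 the numbers 1 and 2; values are given in that order. The study states for its experiments in general that replicates were prepared independently, and the labels add nothing on these libraries. P-values thus measure the spread between such preparations, estimated over all groups of a fit. In TPC1 the replicate numbers appear to pair the libraries across treatments, which the main fits ignore. CDKN1A, a transcriptional target of p53, went from 127 and 149 CPM with DMSO to 6684 and 6798 with nutlin in TPC1, and from 111 and 118 to 979 and 1066 in K1. The thyroid factor PAX8 was at 291 to 847 CPM across the libraries and the thyrotropin receptor gene TSHR had no read in any library. NKX2-1, another thyroid factor, had no read in TPC1 and at most 0.347 CPM in K1. Of 8 thyroid marker genes listed, 4 were tested in TPC1 and 5 in K1. With nutlin, 2 of them were over 1.5-fold higher in each line, beside 17.5% of all genes in TPC1 and 3.84% in K1. In bulk RNA, fewer cells of a kind and less RNA per cell cannot be told apart.

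Promoters of the genes on which the results turn are printed for reference, since SREBP and NF-Y are known to act together at short motifs close to the start of these genes. RefSeq promoters (GRCh38.p14) matched 29 of the 34 genes, and the 250 bases before each start were searched on both strands. CCAAT, the letters bound by NF-Y, was in at least 1 promoter of 21 of the 29 genes (72.4%), against 32% of 35116 single promoters searched. CACNCCA, the core of the sterol regulatory element, was found for 14 of 29 genes (48.3%), against 14.7% of all promoters. The longer TCACNCCAC, which contains the core, was found for 1 of 29 genes, SREBF2, against 0.883% of all promoters. Some of the 29 genes had more than 1 promoter searched, which gives more room for a match. The shares per gene and per promoter are thus not like measures. A match describes letters and not a bound site. In the first 5 sequences, which hold 3 sterol genes, the sensor INSIG1 and the desaturase SCD, capitals mark CCAAT or CACNCCA on either strand, and in the SREBF2 window they mark TCACNCCAC only.
MVK (chr12:109573544-109573793, plus strand): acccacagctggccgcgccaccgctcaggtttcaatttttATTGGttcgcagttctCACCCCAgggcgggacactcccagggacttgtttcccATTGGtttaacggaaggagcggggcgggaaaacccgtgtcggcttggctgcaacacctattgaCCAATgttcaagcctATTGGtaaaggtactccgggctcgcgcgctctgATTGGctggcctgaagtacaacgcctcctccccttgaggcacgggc
LSS (chr21:46228775-46229024, minus strand): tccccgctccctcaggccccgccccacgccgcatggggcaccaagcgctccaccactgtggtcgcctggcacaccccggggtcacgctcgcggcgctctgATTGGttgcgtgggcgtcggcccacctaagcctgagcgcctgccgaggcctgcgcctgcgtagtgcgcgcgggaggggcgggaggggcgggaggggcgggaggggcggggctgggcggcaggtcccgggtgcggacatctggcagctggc
TM7SF2 (chr11:65111622-65111871, plus strand): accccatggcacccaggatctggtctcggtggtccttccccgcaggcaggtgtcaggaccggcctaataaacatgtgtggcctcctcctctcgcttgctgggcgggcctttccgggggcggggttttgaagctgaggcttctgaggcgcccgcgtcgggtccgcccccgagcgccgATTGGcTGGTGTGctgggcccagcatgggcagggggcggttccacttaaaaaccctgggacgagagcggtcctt
INSIG1 (chr7:155297628-155297877, plus strand): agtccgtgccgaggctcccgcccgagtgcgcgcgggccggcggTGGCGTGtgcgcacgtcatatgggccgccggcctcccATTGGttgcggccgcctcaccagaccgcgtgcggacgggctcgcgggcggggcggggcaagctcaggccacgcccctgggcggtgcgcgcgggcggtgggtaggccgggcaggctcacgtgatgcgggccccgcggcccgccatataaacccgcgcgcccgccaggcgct
SCD (chr10:100346983-100347232, plus strand): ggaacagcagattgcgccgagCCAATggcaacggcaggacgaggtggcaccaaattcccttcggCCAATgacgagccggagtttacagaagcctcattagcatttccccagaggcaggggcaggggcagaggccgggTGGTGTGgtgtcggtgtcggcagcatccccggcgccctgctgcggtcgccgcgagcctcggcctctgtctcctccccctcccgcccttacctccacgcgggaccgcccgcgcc
SREBF2 (chr22:41832947-41833005, plus strand): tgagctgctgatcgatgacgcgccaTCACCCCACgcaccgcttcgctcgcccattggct
MVK carried 5 copies of CCAAT and 1 core, LSS 1 copy of CCAAT and no core, and TM7SF2 and INSIG1 1 of each.

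With both drugs, 18 of the 33 genes tested in TPC1 and 18 of 34 in K1 fell. A gene is said to have risen or fallen by the quasi-likelihood F test of edgeR at a Benjamini-Hochberg adjusted p under 0.05 over all genes of the fit, and values are log2 fold changes ± SE from that test. ABCG1 had no more than 1 read in any TPC1 library, so 33 genes entered the TPC1 fit and 34 the K1 fit. In TPC1, nutlin raised 7 and lowered 14 of 33 genes, GSK2830371 raised 1 and lowered 2, and both drugs raised 7 and lowered 18. Of all 15273 genes tested in TPC1, 27.3% rose and 28.3% fell with nutlin, 1.87% rose and 1.64% fell with GSK2830371, and 32% rose and 32.1% fell with both drugs. The median log2 fold change of the 33 genes was -0.16 with nutlin and -0.34 with both drugs, beside -0.0018 and 0.0035 over all genes. In K1, nutlin raised 2 and lowered 0 of 34 genes, GSK2830371 raised 1 and lowered 5, and both drugs raised 4 and lowered 18. Of all 15900 genes tested in K1, 13.5% rose and 16.6% fell with nutlin, 8.38% rose and 10.8% fell with GSK2830371, and 21% rose and 22.2% fell with both drugs. By the same test 6 of 34 genes were lower in K1 with nutlin at an unadjusted p under 0.05, and DESeq2 had 0 lower at an adjusted p under 0.05. The K1 median was -0.24 with both drugs, beside 0.012 over all genes. All 3 comparisons of a line use the same 2 DMSO libraries.

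Changes over 1.5-fold were fewer. In TPC1 they were 3 higher and 5 lower with nutlin, beside 17.5% and 18% of all genes, 0 and 0 with GSK2830371, beside 0.72% and 0.681%, and 2 higher and 14 lower with both drugs, beside 22.5% and 21.7%. In K1 they were 0 and 0 with nutlin, beside 3.84% and 5.43%, 0 higher and 1 lower with GSK2830371, beside 0.736% and 1.5%, and 2 higher and 5 lower with both drugs, beside 7.62% and 8.09%. The 14 genes lower in TPC1 with both drugs comprise 8 sterol enzymes, 5 fatty acid synthesis genes and INSIG1.

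The number of genes that fell with both drugs held at 17 to 18 in TPC1 whichever library was left out, but in K1 it was 9 without DMSO replicate 1. With nutlin in TPC1 it was 9 without nutlin replicate 3, and in K1 the count that rose with nutlin was 0 without nutlin replicate 2 and 1 without DMSO replicate 2, while 3 fell without nutlin replicate 2 and 1 without DMSO replicate 2 or either GSK2830371 library. With GSK2830371 in K1 the count that fell was 3 without DMSO replicate 1 or GSK2830371 replicate 1, and 10 without GSK2830371 replicate 2. In K1 the count that rose with both drugs was 1 without DMSO replicate 2 and 1 without the combined replicate 2. None of the 3 changes with GSK2830371 in TPC1 was past the threshold without DMSO replicate 3, GSK2830371 replicate 1 or 3, or nutlin replicate 1 or 3, and 1 was without DMSO replicate 1. With the replicate number as a block, which the TPC1 libraries follow, GSK2830371 raised 5 and lowered 5 of the 33 genes in TPC1. Over all genes, changes over 1.5-fold with GSK2830371 in TPC1 went from 110 higher and 104 lower to 239 and 241 with the block.

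**Figure D1:**
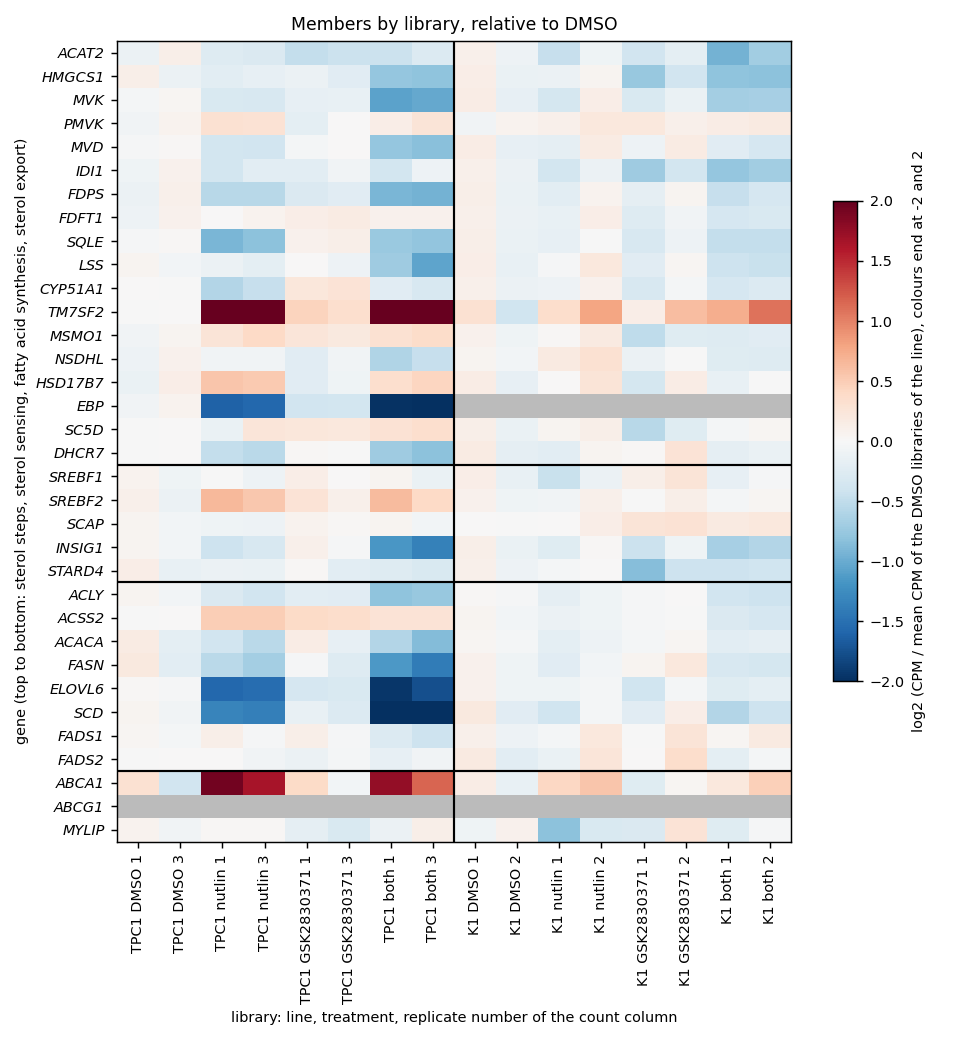
Each row is a gene and each column a library; colour gives the log2 ratio of its CPM to the mean CPM of the DMSO libraries of its line, ending at -2 and 2, and grey marks genes under 1 CPM with DMSO (ABCG1 in both lines, EBP in K1). Black lines part the 4 groups of genes and the 2 lines; in TPC1 the columns of nutlin and both drugs carry the deepest colours, red for TM7SF2 and ABCA1 and blue for EBP, ELOVL6 and SCD.

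Most of the sterol enzymes that changed in TPC1 fell, with TM7SF2 as the clearest exception. Nutlin lowered 8 and raised 4 of these 18 genes, beside 28.3% and 27.3% of all genes. Both drugs lowered 11 and raised 4, beside 32.1% and 32%. Over 1.5-fold lower with both drugs were HMGCS1, MVK, MVD, FDPS, SQLE, LSS, EBP and DHCR7, 8 of 18 genes, beside 21.7% of all genes. MVK, which phosphorylates mevalonate, stood in TPC1 at 19.7 and 20.8 CPM with DMSO, 16.4 and 16.2 with nutlin, 18 and 18.2 with GSK2830371 and 9.65 and 9.94 with both drugs. Both combined libraries lay well below the other 6. The change was -0.32 ± 0.079 (adjusted p = 0.0077) with nutlin and -1.05 ± 0.081 (adjusted p = 3.9e-06) with both drugs.

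HMGCS1, the enzyme that joins acetyl-CoA and acetoacetyl-CoA, was in TPC1 at 30.8 and 26.2 CPM with DMSO, 24.6 and 25.3 with nutlin, 26.2 and 24.3 with GSK2830371 and 16.7 and 16.3 with both drugs. Here too the combined libraries were the lowest and the other 6 lay close together. It fell by 0.79 ± 0.096 on the log2 scale with both drugs (adjusted p = 8.1e-05), while nutlin alone gave -0.19 ± 0.095 (adjusted p = 0.12). LSS, which folds squalene epoxide into lanosterol, showed the same order at 92.3 and 84.8 CPM with DMSO, 81.8 and 77.3 with nutlin, 88.6 and 82.8 with GSK2830371 and 54.1 and 42.8 with both drugs. Its change was -0.87 ± 0.11 (adjusted p = 0.00013) with both drugs and -0.16 ± 0.11 (adjusted p = 0.27) with nutlin.

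SQLE, the squalene epoxidase and a control point of the pathway, behaved otherwise, at 131 and 134 CPM with DMSO, 70.1 and 74.5 with nutlin, 140.1 and 143 with GSK2830371 and 79 and 76.8 with both drugs. All 4 libraries with nutlin lay between 70.1 and 79 CPM and all 4 without it between 131 and 143. Nutlin alone changed it by -0.87 ± 0.071 (adjusted p = 8.3e-06), and the addition of GSK2830371 changed it by 0.11 ± 0.071 (adjusted p = 0.31). FDPS, which makes farnesyl diphosphate, was at 138 and 162 CPM with DMSO, 102 and 103 with nutlin, 122 and 128 with GSK2830371 and 79.4 and 77.7 with both drugs. It took a middle course, with -0.55 ± 0.087 for nutlin and -0.93 ± 0.088 for both drugs. MVD and DHCR7, the decarboxylase of the mevalonate stage and the reductase that ends one branch of the pathway, fell by 0.38 and 0.51 with nutlin and by 0.80 and 0.77 with both drugs. MVD was at 36.1 and 37 CPM with DMSO, 28.3 and 27.9 with nutlin, 35.6 and 36.6 with GSK2830371 and 21.4 and 20.6 with both drugs. DHCR7 was at 92.8 and 93.4 CPM with DMSO, 66.9 and 63.8 with nutlin, 94.2 and 92.6 with GSK2830371 and 56.8 and 52.8 with both drugs. For both genes the GSK2830371 libraries overlapped those of DMSO, and the combined libraries were the lowest.

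TM7SF2, a sterol reductase that acts on the intermediate left by CYP51A1, rose more than any other of the 33 genes in TPC1. Its levels were 2.98 and 2.99 CPM with DMSO, 31.4 and 30.0 with nutlin, 4.06 and 3.76 with GSK2830371 and 46.4 and 53.7 with both drugs. The 4 libraries with nutlin lay far above the 4 without it, and the combined libraries were the highest. The rise was 3.36 ± 0.11 (adjusted p = 2.1e-08) with nutlin and 4.07 ± 0.11 (adjusted p = 6.2e-09) with both drugs, and the step between them, 0.71 ± 0.090 (adjusted p = 0.00077), also passed the test. MSMO1, which removes methyl groups from sterol intermediates, rose by 0.33 ± 0.084 with nutlin and by 0.33 ± 0.084 with both, at 36.1 and 39.4 CPM with DMSO, 45 and 49.6 with nutlin, 44.4 and 43.1 with GSK2830371 and 46.6 and 48.4 with both drugs. HSD17B7, the ketoreductase of that complex, went from 10.9 and 13 CPM with DMSO to 17.5 and 17.2 with nutlin and 15 and 16.1 with both drugs, rises of 0.53 ± 0.11 and 0.38 ± 0.11, with the limit that it has a closely related pseudogene and reads could be shared between them.

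EBP, the isomerase that moves the ring double bond, fell the most among the sterol enzymes of TPC1, at 44 and 48.2 CPM with DMSO, 15 and 15.5 with nutlin, 35.3 and 35.9 with GSK2830371 and 11.7 and 11.3 with both drugs. None of the 4 groups overlapped another. The change was -1.60 ± 0.081 (adjusted p = 3.7e-07) with nutlin, -0.38 ± 0.077 (adjusted p = 0.037) with GSK2830371 and -2.01 ± 0.082 (adjusted p = 6.6e-08) with both.

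The remaining sterol enzymes of TPC1 moved less. PMVK rose with nutlin, by 0.29 ± 0.096, and SC5D with both drugs, by 0.32 ± 0.11. NSDHL, which acts beside MSMO1 in demethylation, fell by 0.53 ± 0.096 with both drugs, from 56.8 and 64.5 CPM with DMSO to 39.9 and 44.1. CYP51A1, the lanosterol demethylase, was at 38.7 and 38.2 CPM with DMSO, 25.6 and 28 with nutlin, 44.9 and 46.4 with GSK2830371 and 32.7 and 30.8 with both drugs. It fell less with both drugs (-0.28 ± 0.079) than with nutlin alone (-0.52 ± 0.080), although the difference did not pass the test (adjusted p = 0.057). IDI1 and FDFT1 passed no test of treatment in TPC1, and ACAT2, the cytosolic thiolase at the start, fell with every treatment, by 0.28, 0.45 and 0.35, at 56.8 and 66.6 CPM with DMSO, 51.4 and 50.7 with nutlin, 44.5 and 45.7 with GSK2830371 and 45.9 and 51 with both drugs. IDI1 lay between 31.7 and 43.2 CPM and FDFT1 between 79.1 and 95.1 CPM across the 8 TPC1 libraries.

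**Figure D2:**
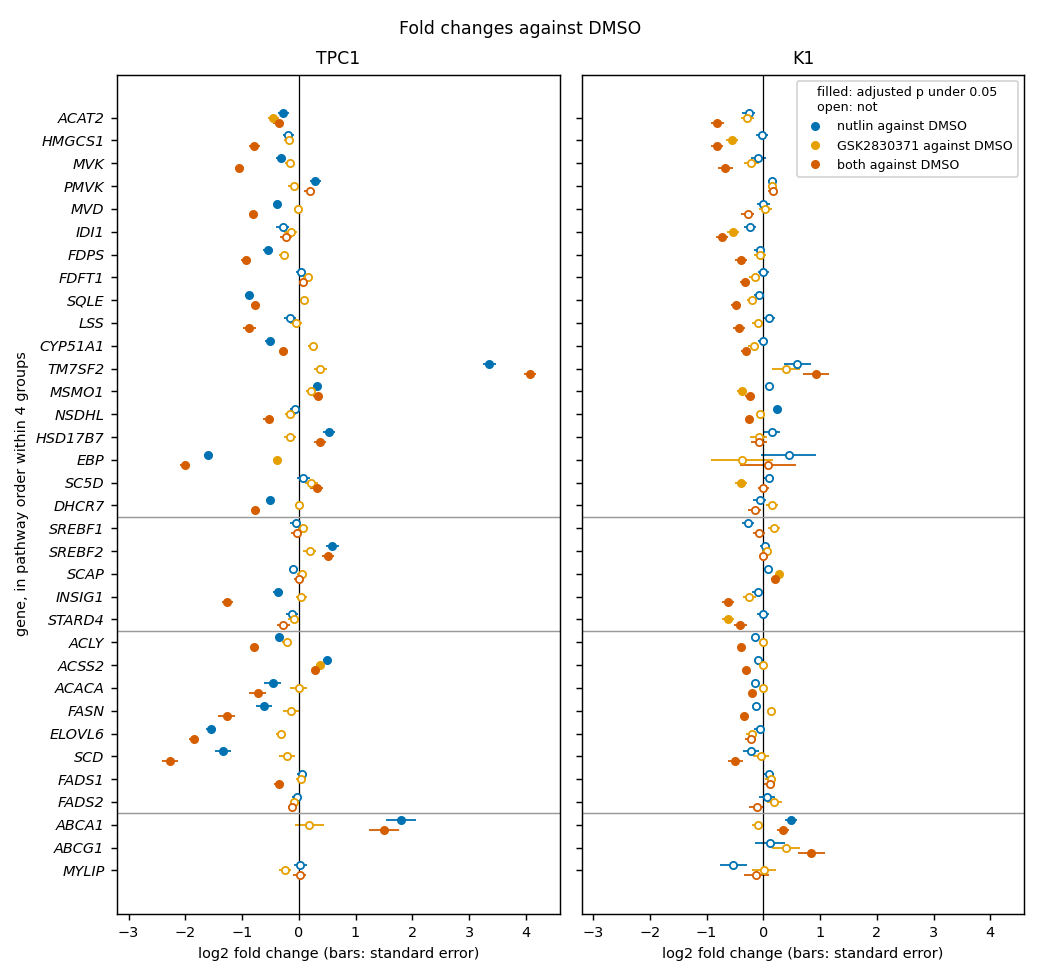
Log2 fold change against DMSO of every gene in TPC1 (left) and K1 (right), with SE bars, for nutlin (blue), GSK2830371 (yellow) and both drugs (orange); filled points passed an adjusted p of 0.05 and open points did not. The TPC1 points spread from -2.27 for SCD to 4.07 for TM7SF2, whereas those of K1 stay between -0.82 and 0.92.

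In K1 most sterol enzymes were at higher levels than in TPC1, and they moved within a narrower range. Both drugs lowered 11 of 18 and raised TM7SF2, beside 22.2% and 21% of all genes. Nutlin raised NSDHL alone, beside 13.5%, and GSK2830371 lowered HMGCS1, IDI1, MSMO1 and SC5D, beside 10.8%. Over 1.5-fold lower with both drugs were ACAT2, HMGCS1, MVK and IDI1, which act early in the pathway, 4 of 18 genes, beside 8.09%. HMGCS1 in K1 was at 180.05 and 149.98 CPM with DMSO, 152 and 171 with nutlin, 97.4 and 126 with GSK2830371 and 94 and 93.3 with both drugs. The combined libraries were the lowest, with GSK2830371 replicate 1 next to them. The changes were -0.56 ± 0.11 (adjusted p = 0.003) with GSK2830371 and -0.82 ± 0.11 (adjusted p = 3.3e-05) with both drugs.

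ACAT2 was in K1 at 135 and 117 CPM with DMSO, 92 and 119 with nutlin, 96.6 and 111 with GSK2830371 and 65.7 and 77.6 with both drugs, and changed by -0.82 ± 0.11 (adjusted p = 5.8e-05) with both. IDI1, the isopentenyl diphosphate isomerase, was at 124 and 106 CPM with DMSO, 88.8 and 106 with nutlin, 70.2 and 88.6 with GSK2830371 and 67.4 and 70.5 with both drugs, with a change of -0.73 ± 0.11 (adjusted p = 7.9e-05) for both drugs. For both genes the 2 combined libraries lay below every DMSO and nutlin library. MVK fell by 0.67 ± 0.13, and by 0.50 without DMSO replicate 1, which is under 1.5-fold. FDPS, FDFT1, SQLE, LSS, CYP51A1, MSMO1 and NSDHL fell by 0.24 to 0.48, the largest SQLE. SQLE was in K1 at 304 and 256 CPM with DMSO, 251 and 278 with nutlin, 224 and 261 with GSK2830371 and 201 and 201 with both drugs, and LSS at 203 and 167 CPM with DMSO, 181 and 214 with nutlin, 158 and 189 with GSK2830371 and 138 and 136 with both drugs. For both, the 2 combined libraries were the lowest of the 8. MSMO1 was at 138 and 122 CPM with DMSO, 133 and 147 with nutlin, 91.1 and 110.0 with GSK2830371 and 109 and 112 with both drugs, with its lowest level under GSK2830371 alone. TM7SF2 in K1 was at 4.05 and 2.48 CPM with DMSO, 4.16 and 5.65 with nutlin, 3.56 and 5.02 with GSK2830371 and 5.39 and 6.92 with both drugs and changed by 0.92 ± 0.23 (adjusted p = 0.0049) with both drugs, a call lost without DMSO replicate 2 (0.60, adjusted p = 0.060) or without the combined replicate 2 (0.73, adjusted p = 0.061).

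With DMSO, nutlin and GSK2830371, the 2 libraries of a K1 group differed from each other mostly in one direction across the sterol enzymes. Of the 17 enzymes at 1 CPM or more, the second library was the higher for 1 with DMSO (median ratio of second to first 0.841), 17 with nutlin (1.19), 16 with GSK2830371 (1.202) and 12 with both drugs (1.02). In TPC1 these counts were 15, 10, 12 and 9 of 18. The smaller K1 changes are close in size to these shifts within a group, whose source was not tested. The same counts were not taken over all genes, so whether the shifts are particular to the sterol enzymes was not tested.

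**Figure D3:**
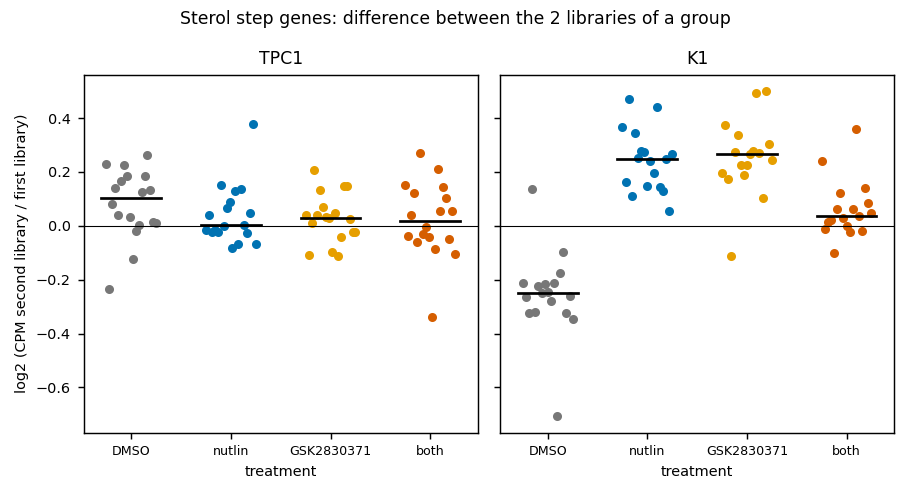
Log2 ratio of the second to the first library of each group for the sterol enzymes at 1 CPM or more, one point per gene, with the median as a bar. In K1 nearly all points lie below 0 with DMSO and above 0 with nutlin and with GSK2830371; in TPC1 the medians correspond to ratios of 1.00 to 1.07.

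GSK2830371 alone in K1 has a further limit. There the log2 fold change of all genes ran with the GC content of their transcripts (Spearman's rho 0.577 across genes, which are not independent replicates), a trend of at most 0.097 in size in the other comparisons with DMSO. After a correction for GC content and length, HMGCS1 (-0.35, adjusted p = 0.031) and IDI1 (-0.41, adjusted p = 0.021) still passed in K1, and MSMO1 (-0.12), SC5D (-0.099), SCAP (0.13) and STARD4 (-0.28) did not pass. The part of GC content in the values of these 4 genes was not tested further.

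Among the sensing genes, INSIG1, itself a target of SREBP that holds SCAP in the endoplasmic reticulum, fell with both drugs in both lines. In TPC1 it was at 47.5 and 44 CPM with DMSO, 34.3 and 36.7 with nutlin, 49.3 and 45 with GSK2830371 and 20.5 and 17.9 with both drugs, and both combined libraries lay below the other 6. The change was -0.37 ± 0.095 (adjusted p = 0.0092) with nutlin, 0.042 ± 0.094 (adjusted p = 0.84) with GSK2830371 and -1.26 ± 0.097 (adjusted p = 3.9e-06) with both. In K1 it was at 155 and 130.1 CPM with DMSO, 120.4 and 145 with nutlin, 106 and 134 with GSK2830371 and 89.5 and 95.3 with both drugs, and both drugs changed it by -0.62 ± 0.11 (adjusted p = 0.00042). Without DMSO replicate 1 the K1 value was -0.49 and without the combined replicate 1 it was -0.58, both under 1.5-fold.

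SREBF2, which encodes the SREBP of sterol genes, moved opposite to most sterol enzymes in TPC1. It was at 227 and 194 CPM with DMSO, 329 and 305 with nutlin, 255 and 226 with GSK2830371 and 326 and 277 with both drugs, with all 4 nutlin libraries above the 4 others. It rose by 0.59 ± 0.11 with nutlin (adjusted p = 0.0017) and by 0.52 ± 0.11 with both. The nutlin value lies on the 1.5-fold limit, at 0.53 without nutlin replicate 1 and 0.50 without DMSO replicate 3. In K1 SREBF2 gave 0.021 ± 0.074 with nutlin and -0.0043 ± 0.074 with both, with a 95% interval of -0.16 to 0.15 for the latter. SREBF1, which encodes the SREBP of fatty acid genes, passed no test of treatment in either line, and lay between 162 and 195 CPM in TPC1 and between 48.5 and 78.9 CPM in K1. SCAP rose slightly in K1 with GSK2830371 (0.27 ± 0.056) and with both (0.20 ± 0.056). STARD4, which carries sterol between membranes, fell in K1 with GSK2830371 (-0.62 ± 0.11) and with both (-0.40 ± 0.11), at 58.3 and 50.6 CPM with DMSO, 52.8 and 55 with nutlin, 30.1 and 40.8 with GSK2830371 and 40.8 and 41.5 with both drugs. The first of these was -0.52 without DMSO replicate 1 and -0.42 without GSK2830371 replicate 1.

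Fatty acid synthesis genes had the lowest median of the 4 groups in TPC1. Nutlin lowered 5 and raised 1 of the 8 genes, beside 28.3% and 27.3% of all genes. Both drugs lowered 6 and raised 1, beside 32.1% and 32%. The medians were -0.40 with nutlin and -0.75 with both drugs. SCD, the desaturase that makes monounsaturated fatty acids, was at 613 and 562 CPM with DMSO, 237 and 228 with nutlin, 528 and 489 with GSK2830371 and 141 and 102 with both drugs. Each group lay apart from the others, and the combined libraries were the lowest. The change was -1.34 ± 0.14 (adjusted p = 3.5e-05) with nutlin and -2.27 ± 0.14 (adjusted p = 9.5e-07) with both drugs.

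ELOVL6, which lengthens saturated chains, was already low with nutlin alone, at 48.8 and 47.5 CPM with DMSO, 16.2 and 16.7 with nutlin, 38 and 39.1 with GSK2830371 and 12.5 and 14.2 with both drugs. Nutlin changed it by -1.55 ± 0.084 (adjusted p = 6.1e-07) and both drugs by -1.85 ± 0.085 (adjusted p = 1.4e-07). FASN, the fatty acid synthase, was at 829 and 627 CPM with DMSO, 499 and 453 with nutlin, 718 and 606 with GSK2830371 and 327 and 278 with both drugs. Its 2 DMSO libraries were the farthest apart of its 4 groups, and the nutlin fall of -0.61 ± 0.15 was -0.40 without DMSO replicate 1 and lost its call without nutlin replicate 3 (adjusted p = 0.050). The fall with both drugs was -1.27 ± 0.15 and lay between -1.44 and -1.05 whichever library was left out.

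The genes that supply or carboxylate acetyl-CoA split in TPC1. ACLY, which makes cytosolic acetyl-CoA from citrate, was at 599 and 552 CPM with DMSO, 469.9 and 439 with nutlin, 499 and 493 with GSK2830371 and 328 and 340.0 with both drugs. It fell by 0.34 ± 0.078 with nutlin and 0.78 ± 0.078 with both drugs, and ACACA, the carboxylase that makes malonyl-CoA, by 0.46 ± 0.15 and 0.72 ± 0.15. Without DMSO replicate 1 the latter was -0.53. ACSS2, which makes acetyl-CoA from acetate, rose with each treatment, at 35.7 and 35.9 CPM with DMSO, 50.1 and 50.5 with nutlin, 46.9 and 45.9 with GSK2830371 and 43.5 and 43.4 with both drugs, and no treated library reached down to the DMSO level. The rises were 0.49 ± 0.071, 0.37 ± 0.071 and 0.28 ± 0.071 in that order. Of the desaturases of polyunsaturated fatty acids, FADS1 fell with both drugs (-0.34 ± 0.088) and FADS2 passed no test. In K1, both drugs lowered ACLY, ACSS2, ACACA, FASN and SCD by 0.20 to 0.49, where 22.2% of all genes fell. None was over 1.5-fold, and neither drug alone changed any of the 8 genes past the threshold. SCD was in K1 at 593 and 445 CPM with DMSO, 392 and 503 with nutlin, 444 and 567 with GSK2830371 and 347 and 391 with both drugs. Its first DMSO library was the highest and its first combined library the lowest, and the combined libraries overlapped no DMSO library. FASN was in K1 at 703 and 625 CPM with DMSO, 567 and 642 with nutlin, 687 and 767 with GSK2830371 and 534 and 519 with both drugs, with the combined libraries below the other 6.

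ABCA1, the pump that loads cholesterol onto apolipoprotein and a target of LXR, rose with nutlin in both lines. In TPC1 it was at 201 and 125 CPM with DMSO, 618 and 509 with nutlin, 213 and 156 with GSK2830371 and 553 and 365 with both drugs. The first library of each TPC1 group was the higher, and all nutlin libraries still lay above all others. The rise was 1.79 ± 0.26 (adjusted p = 0.00035) with nutlin and 1.498 ± 0.26 (adjusted p = 0.0008) with both drugs. In K1 it was at 259.6 and 211 CPM with DMSO, 313 and 347 with nutlin, 199.7 and 242 with GSK2830371 and 274 and 327 with both drugs. The rise there was 0.49 ± 0.11 (adjusted p = 0.0037) with nutlin and 0.35 ± 0.11 (adjusted p = 0.018) with both. The K1 rise depended on single libraries. Leaving out 1 library at a time, it lay between 0.35 and 0.64 with nutlin and between 0.21 and 0.51 with both drugs.

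ABCG1, a second export pump and LXR target, was detected in K1 at a low level, 0.884 and 0.917 CPM with DMSO, 0.797 and 1.15 with nutlin, 1.21 and 1.16 with GSK2830371 and 1.64 and 1.60 with both drugs, from 23 to 53 reads a library. Both combined libraries lay above the other 6. With both drugs it changed by 0.85 ± 0.24 (adjusted p = 0.01), with an adjusted p of 0.074 by DESeq2, 0.052 without DMSO replicate 1 and 0.051 without the combined replicate 1. MYLIP, a ubiquitin ligase raised by LXR that limits lipoprotein uptake, passed no test of treatment in either line. It lay between 11.0 and 14.8 CPM in TPC1 and between 1.39 and 2.96 CPM in K1. Its change with nutlin was 0.03 ± 0.11 in TPC1 and -0.53 ± 0.23 in K1.

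**Figure D4:**
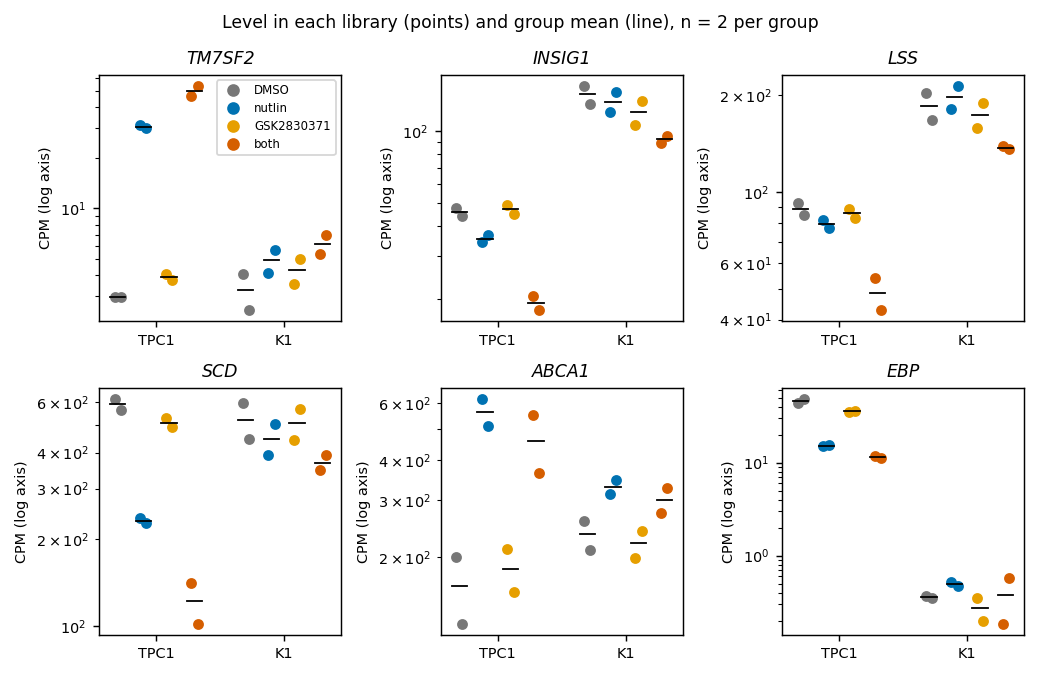
CPM of 6 genes in each library (points, log axes that differ between panels) with the mean of each group of 2 as a line, for DMSO (grey), nutlin (blue), GSK2830371 (yellow) and both drugs (orange). INSIG1 and LSS of TPC1 drop in the combined libraries, SCD drops in steps, and TM7SF2 and ABCA1 climb wherever nutlin is present; EBP of K1 stays at 0.574 CPM or below.

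GSK2830371 added to nutlin lowered genes beyond nutlin alone. Against the nutlin libraries, both drugs lowered 14 and raised 1 of 33 genes in TPC1, beside 12.9% of all genes lower and 13.2% higher, with a median of -0.21 beside 0.013 over all genes. The gene raised was TM7SF2. In K1 they lowered 15 and raised 0 of 34, beside 6.53% of all genes lower and 5.89% higher, with a median of -0.24 beside 0.0044. At an unadjusted p under 0.05, 2 of the 34 were higher in K1, and DESeq2 had 0 higher at an adjusted p under 0.05. The combined libraries are those of the comparisons with DMSO. These counts depend on single libraries. The TPC1 count that fell was 8 without nutlin replicate 1 and 9 without nutlin replicate 3 (where 2 rose), with 3 risen under the replicate block, and the K1 count was 2 without nutlin replicate 2, 4 without the combined replicate 1 and 5 without the combined replicate 2.

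In TPC1 the genes over 1.5-fold lower than with nutlin were HMGCS1 (-0.60 ± 0.097), MVK (-0.73 ± 0.082), LSS (-0.72 ± 0.11), INSIG1 (-0.89 ± 0.097), FASN (-0.66 ± 0.15) and SCD (-0.93 ± 0.14), beside 5.66% of all genes lower, and TM7SF2 was over 1.5-fold higher, beside 6.46% of all genes. Without the combined replicate 3, 3 of these 6 calls were lost, those of HMGCS1 (-0.58), LSS (-0.55) and FASN (-0.54). HMGCS1 also fell under 1.5-fold without nutlin replicate 3 (-0.58), and FASN without nutlin replicate 1 (-0.58, adjusted p = 0.078). In K1 HMGCS1 alone was over 1.5-fold lower than with nutlin (-0.79 ± 0.11), beside 1.52% of all genes, and 0 genes were higher, beside 1.16%.

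Whether the effect of both drugs departed from the sum of the separate log2 effects was tested by the interaction term. In TPC1 it was below 0 for 5 of 33 genes and above 0 for 0, beside 4.74% of all genes lower and 3.84% higher. With the replicate number as a block, 15 genes were below 0 and 1 above. The block also raised the counts over all genes, where terms over 1.5-fold went from 534 below and 431 above 0 to 859 and 714. Without the block, above 0 at an unadjusted p under 0.05 was 1 gene, and DESeq2 had 0 at an adjusted p under 0.05. In the fit without the block INSIG1 had the largest, -0.93 ± 0.14 (adjusted p = 0.005), and remained past the threshold without any one library. Over 1.5-fold below 0 were 3 genes, INSIG1, LSS and ACSS2, beside 3.5% of all genes, and above 0 were 0, beside 2.82%. The 4 terms beside INSIG1 were LSS (-0.67 ± 0.16), ACSS2 (-0.59 ± 0.10), MVK (-0.57 ± 0.11) and MVD (-0.40 ± 0.10). Those of LSS and ACSS2 passed the threshold of p and 1.5-fold in 2 and 1 of the 8 fits that left out a library. The count of genes below 0 was 1 without nutlin replicate 1 or 3 or GSK2830371 replicate 1 or 3, and 3 without DMSO replicate 3 or the combined replicate 3, and 1 gene was above 0 without DMSO replicate 1.

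In K1 NSDHL (-0.43 ± 0.089) and ACLY (-0.25 ± 0.072) had interaction terms below 0, beside 2.83% of all genes, and 0 genes had terms above 0, beside 5.24%. None was over 1.5-fold, beside 1.79% of all genes above and 0.654% below. The terms of all K1 genes ran with GC content (Spearman's rho -0.604 across genes), and neither gene passed after the correction for GC content and length, nor without nutlin replicate 2, DMSO replicate 2 or the combined replicate 2. Without nutlin replicate 1 the count was 4, and without the combined replicate 1 or GSK2830371 replicate 2 it was 1, with 2 genes above 0 in the latter case.

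Before treatment the lines stood far apart in this pathway. With DMSO, 23 of 34 genes were higher and 5 lower in K1 than in TPC1, beside 34.7% of 16738 genes higher and 33% lower, and 20 were over 1.5-fold higher and 4 lower, beside 25% and 21.2% of all genes. The median difference was 0.76 on the log2 scale and 0.018 over all genes, and it was 0.76 with ABCG1 set at its lower bound. Among the sterol enzymes 15 of 18 were higher in K1. Line, growth medium and any difference in sequencing run cannot be told apart in this comparison. The 34 genes were not compared here under the correction for GC content and length. Over all genes, that correction moved those over 1.5-fold from 4179 higher and 3547 lower in K1 to 3809 and 4363.

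HMGCS1 was at 30.8 and 26.2 CPM in TPC1 and 180.05 and 149.98 in K1, a difference of 2.52 ± 0.12 (adjusted p = 9.5e-12). CYP51A1 (2.11 ± 0.10), MSMO1 (1.77 ± 0.099), INSIG1 (1.62 ± 0.12) and FDFT1 (1.51 ± 0.10) also stood higher in K1. FADS2 was at 22.1 and 22.6 CPM in TPC1 and 261 and 199 in K1, a difference of 3.35 ± 0.15 (adjusted p = 5.2e-12). ABCG1 had no read in the TPC1 DMSO libraries and 0.884 and 0.917 CPM in K1, which is at least 33-fold higher against a floor of 3 reads over both TPC1 libraries.

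Lower in K1 were EBP, PMVK, SREBF1, ACACA and MYLIP. EBP was at 44 and 48.2 CPM in TPC1 and 0.371 and 0.350 in K1 (13 reads in each K1 library), a difference of -7.01 ± 0.19 (adjusted p = 1.4e-14). MYLIP differed by -2.49 ± 0.16, SREBF1 by -1.44 ± 0.11, PMVK, the kinase after MVK, by -1.03 ± 0.097, and ACACA by -0.44 ± 0.11. For FASN, SCD, ELOVL6 and ACLY the differences between lines did not pass the test, with unadjusted 95% intervals of -0.39 to 0.10, -0.53 to 0.14, -0.16 to 0.27 and -0.041 to 0.25. HSD17B7, DHCR7 and FADS1 were over 1.5-fold higher in K1 with all libraries (0.68, 0.73 and 0.62), but not without K1 DMSO replicate 1 (0.51, 0.55 and 0.52).

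**Figure D5:**
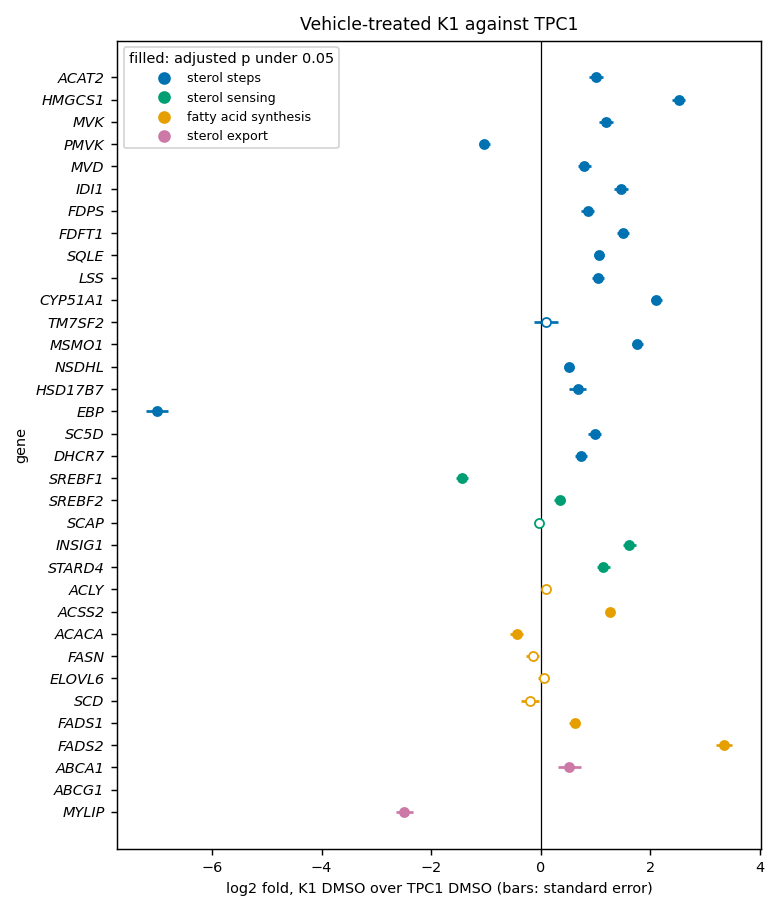
Log2 ratio of K1 to TPC1 with DMSO for each gene, with SE bars, coloured by group (blue sterol steps, green sterol sensing, yellow fatty acid synthesis, pink sterol export); filled points passed an adjusted p of 0.05. ABCG1, with no read in TPC1, is left empty; most sterol steps lie right of 0, and EBP lies at -7.01.

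The responses of the lines were compared in a joint fit of all 16 libraries, as the log2 fold change of K1 minus that of TPC1. For nutlin, the difference passed for 10 of 34 genes, 6 above and 4 below 0, beside 14.6% and 16.5% of all genes, which is near that background. For both drugs it passed for 19, 11 above and 8 below, beside 18.9% and 19.7%. For GSK2830371 it passed for 2, both below 0, beside 2.86% of all genes lower and 1.68% higher. Those 2, MSMO1 and ACSS2, were at -0.58 ± 0.14 and -0.38 ± 0.094. Differences over 1.5-fold numbered 4 above and 4 below 0 for nutlin, beside 8.73% and 10.5% of all genes. They numbered 6 and 4 for both drugs, beside 11.9% and 13.8%, and 0 and 0 for GSK2830371, beside 0.597% and 1.58%. The counts over 1.5-fold are thus near the shares of all genes.

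TM7SF2 differed the most, its rise being smaller in K1 by 2.79 ± 0.29 with nutlin and by 3.17 ± 0.28 with both drugs. ELOVL6, SCD and SQLE, which fell in TPC1 with nutlin and passed no test in K1 with it, differed by 1.45 ± 0.15, 1.09 ± 0.22 and 0.75 ± 0.13. ABCA1 rose less in K1 by 1.35 ± 0.29 with nutlin, and the responses of SREBF2 and ACSS2, which rose in TPC1, were lower in K1 by 0.61 ± 0.14 and 0.63 ± 0.094. EBP gave 2.01 ± 0.41 with nutlin and 2.06 ± 0.44 with both drugs, values that rest on 6 to 19 reads in each K1 library, and the latter was 1.04 (adjusted p = 0.26) without the K1 combined replicate 2.

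With both drugs the lines also parted at MSMO1, which rose in TPC1 and fell in K1 (-0.60 ± 0.14, adjusted p = 0.0023), and at FASN, which fell further in TPC1 (0.90 ± 0.17, adjusted p = 0.00039). The sterol enzymes differed in both directions. IDI1 (-0.54 ± 0.18), ACAT2 (-0.49 ± 0.18) and FDFT1 (-0.42 ± 0.14) were lower in K1 relative to TPC1, while FDPS (0.52 ± 0.16), MVD (0.49 ± 0.17), DHCR7 (0.59 ± 0.15) and INSIG1 (0.61 ± 0.17) were lower in TPC1. HMGCS1, MVK, SQLE and LSS did not pass, with unadjusted 95% intervals of -0.40 to 0.28, -0.047 to 0.74, -0.016 to 0.53 and 0.066 to 0.77.

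The counts for both drugs were 6 above 0 without the TPC1 combined replicate 3, 7 without K1 DMSO replicate 2 or the K1 combined replicate 2, and 5 below 0 without K1 DMSO replicate 1, the K1 combined replicate 1 or TPC1 DMSO replicate 1. Those for GSK2830371 were 0 without K1 DMSO replicate 1 or 2, K1 GSK2830371 replicate 1 or TPC1 GSK2830371 replicate 1 or 3, 1 without the K1 combined replicate 2 or TPC1 DMSO replicate 3, and 5 without K1 GSK2830371 replicate 2.

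Another 57 genes of sterol, isoprenoid and fatty acid metabolism were listed beside the 34, of which 55 entered the TPC1 fit and 56 the K1 fit. With both drugs 22 rose and 24 fell in TPC1 (median -0.19), beside 32% and 32.1% of all genes. In K1 15 rose and 15 fell (median 0.014), beside 21% and 22.2%, which is near that background. Among those changed over 1.5-fold and at 1 CPM or more in the higher group, the largest changes in TPC1 were those of FADS3, a relative of the fatty acid desaturases, LBR, an inner nuclear membrane protein with the same sterol reductase activity as TM7SF2, and ABCA7, a lipid transporter. LBR was at 278 and 225 CPM with DMSO, 76.6 and 74.9 with nutlin, 224 and 200.3 with GSK2830371 and 58.6 and 54.4 with both drugs and changed by -1.73 ± 0.11 (adjusted p = 1.6e-06) with nutlin and -2.15 ± 0.11 (adjusted p = 3e-07) with both drugs. TM7SF2 and LBR moved in opposite directions in the same libraries. FADS3 was at 16 and 18.8 CPM with DMSO, 78.6 and 82.8 with nutlin, 20.3 and 22.2 with GSK2830371 and 128 and 155 with both drugs and changed by 3.02 ± 0.12 (adjusted p = 6.4e-08) with both drugs, and ABCA7 by 2.02 ± 0.12 (adjusted p = 5.8e-07).

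Within the same limits the largest changes in K1 were those of INSIG2, the second INSIG, FADS3 and TMEM97, a sterol-regulated membrane protein. INSIG2 was at 52.1 and 40.9 CPM with DMSO, 95.9 and 112 with nutlin, 56.8 and 77.3 with GSK2830371 and 109 and 126 with both drugs, and the libraries with nutlin lay above all others. It rose by 1.16 ± 0.14 with nutlin and 1.34 ± 0.14 with both drugs, and in TPC1 by 0.48 ± 0.093 and 0.47 ± 0.093. The K1 response exceeded that of TPC1 by 0.84 ± 0.20 (adjusted p = 0.0032) with both drugs. FADS3 rose by 1.28 ± 0.11 and TMEM97 fell by 1.00 ± 0.10 with both drugs.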

How the data were processed

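RNA was sequenced in 16 libraries, 2 for each of 4 treatments in each of 2 lines, as stranded poly(A) libraries with single-end reads of 150 bases. The deposited values are counts of reads per gene. Per the submitters' notes and the methods of the study, the authors aligned reads to GRCh37/hg19 with TopHat2 2.0.13 and Bowtie2 2.2.3.0, removed reads of mapping quality under 10 and counted strand-specifically with HTSeq 0.6.1, so that the FADS1 and FADS2 loci, which lie on opposite strands, are separable.

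Counts were analysed with edgeR 4.0.16 in R 4.3.3. A gene entered a fit where 2 or more of the line's libraries exceeded 0.1 CPM (15273 genes in TPC1, 15900 in K1 and 16738 in the joint fit), TMM scaling was applied, and quasi-likelihood F tests were run in 1 fit of 8 libraries per line, which leaves 4 residual degrees of freedom, and in 1 fit of all 16 libraries for differences between lines. P-values were adjusted by Benjamini-Hochberg over all genes of a fit. A gene rose or fell at an adjusted p under 0.05, and a change was called where it was also over 1.5-fold. SE is the size of the log2 fold change divided by the square root of F, and 95% intervals are not adjusted for the number of genes. The tests were also run on simulated data with changes planted in nutlin libraries only. Those data were drawn without paired libraries or a GC trend, so that run does not cover either. All 34 members are named, and of the other pathway genes up to 3 a line, those with the largest called change with both drugs and at least 1 CPM in the higher group. The members and lists were chosen with earlier results of these data known. Alternatives were DESeq2 1.42.0 size factors and Wald test, library size alone, no filter, edgeR's filterByExpr, a correction for GC content and length, a replicate block, and each library left out in turn. Across 12308 genes the difference between the 2 libraries of a group correlated at 0.447 to 0.616 in all 6 pairs of TPC1 treatments. The replicate numbers thus appear to pair these libraries, from the data and not from the labels. In K1 the correlations were -0.321 to 0.335 across 12544 genes. The main fits hold no block, so their tests ignore this pairing, which entered only the replicate block alternative. There the TPC1 interaction went from 5 to 15 genes below 0.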

Additional observations from a re-analysis of the deposited data

Results flagged for a closer look

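The results here are those for which the 2 lines responded differently by the interaction term of the joint edgeR fit, past an adjusted p of 0.05 and 1.5-fold, given as the log2 response of K1 minus that of TPC1. Groups of 2 libraries are too small for a test of single outlying samples.

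For nutlin the difference was 0.7519 for SQLE, -2.791 for TM7SF2, 2.005 for EBP, -0.6054 for SREBF2, -0.6285 for ACSS2, 1.448 for ELOVL6, 1.089 for SCD and -1.347 for ABCA1. TM7SF2, SREBF2, ACSS2 and ABCA1 rose in TPC1 with nutlin, and SQLE, EBP, ELOVL6 and SCD fell there. In K1 only ABCA1 of these 8 genes passed the test with nutlin. The SREBF2 difference was under 1.5-fold, at -0.51 to -0.56, in 4 of the 16 fits that left out a library. It was also under 1.5-fold with DESeq2 size factors (-0.582), the DESeq2 Wald test (-0.582), library size alone (-0.547) and filterByExpr (-0.553). With the GC and length correction it was -0.462, and -0.467 with the replicate block added. The ACSS2 difference was -0.57 without K1 DMSO replicate 1, -0.572 with library size alone and -0.578 with filterByExpr.

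For both drugs the difference was -3.172 for TM7SF2, -0.5966 for MSMO1, 2.065 for EBP, 0.5855 for DHCR7, 0.6079 for INSIG1, -0.6199 for ACSS2, 0.9047 for FASN, 1.597 for ELOVL6, 1.756 for SCD and -1.179 for ABCA1. The values of DHCR7, MSMO1, INSIG1 and ACSS2 lie close to the 1.5-fold limit. EBP has 6 to 19 reads in each K1 library, so its response in that line is poorly determined.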

How the results depend on the processing

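For single genes that passed the test in the main fits, no log2 fold change reversed in sign under the alternatives in which it was compared. Counts were compared by size, which cannot show a reversal. In K1 with nutlin, the genes past the adjusted p went from risen only to fallen only without nutlin replicate 2. Counts of called genes among the 34 changed as follows. With library size alone, genes lower in the TPC1 interaction went from 3 to 5, in the line difference of the nutlin response from 4 to 2, in that of the GSK2830371 response from 0 to 2, and in that of both drugs from 4 to 2. Without a filter, genes higher in K1 went from 0 to 1 with nutlin and from 0 to 1 with both drugs against nutlin, and the line difference of the GSK2830371 response, lower, from 0 to 2. With filterByExpr, genes lower in the line difference of the nutlin response went from 4 to 2 and of the GSK2830371 response from 0 to 1. With DESeq2 size factors or the DESeq2 Wald test, genes lower in K1 with both drugs against nutlin went from 1 to 2 and in the line difference of the GSK2830371 response from 0 to 1, and with the Wald test those higher in K1 with both drugs from 2 to 1. With the GC and length correction, with or without the replicate block, genes lower in K1 with GSK2830371 went from 1 to 0. Over all genes the same count went from 238 to 61, and to 57 with the block.

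Leaving out 1 library at a time, the count lower in TPC1 was 3 to 6 for both drugs against nutlin and 1 to 3 for the interaction. In K1 it was 0 to 2 higher with nutlin, 0 to 3 lower with GSK2830371, 1 to 2 higher and 3 to 7 lower with both drugs, 1 to 6 lower with both drugs against nutlin and 0 to 1 lower for the interaction. For the line differences it was 2 to 5 lower with nutlin, 0 to 4 lower with GSK2830371, and 3 to 8 higher and 2 to 8 lower with both drugs.

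Counts at an adjusted p under 0.05 alone moved more. With the replicate block, genes risen and fallen in TPC1 went from 1 to 5 and from 2 to 5 with GSK2830371, those risen with both drugs against nutlin from 1 to 3, and those above and below 0 in the interaction from 0 to 1 and from 5 to 15. The K1 interaction, lower, went from 2 to 1, the line difference of the nutlin response, higher, from 6 to 10, and that of the GSK2830371 response, lower, from 2 to 5. Of the counts over 1.5-fold, the block moved by that rule only the line difference of the GSK2830371 response, lower, from 0 to 1. Of the single genes it took ACSS2 in the TPC1 interaction (-0.58) and DHCR7 in the line difference with both drugs (0.58) just under 1.5-fold. Such losses of 1 gene from a count can fall below the rule.

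With the GC and length correction, genes fallen in TPC1 with GSK2830371 went from 2 to 4 and below 0 in the TPC1 interaction from 5 to 10. In K1, genes risen and fallen with nutlin went from 2 to 4 and from 0 to 2, with GSK2830371 from 1 to 0 and from 5 to 2, and below 0 in the interaction from 2 to 0. The line difference of the nutlin response, higher, went from 6 to 10 and that of the GSK2830371 response, lower, from 2 to 1. Under the correction and the block together, the TPC1 counts were 6 and 8 with GSK2830371, 4 risen with both drugs against nutlin, and 1 and 13 for the interaction, and in K1 3 fell with nutlin, 0 rose and 2 fell with GSK2830371, and the interaction had 0, while the line difference of the nutlin response, higher, was 13.

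Without a filter, 4 genes fell in K1 with nutlin, 8 with GSK2830371, 1 rose with both drugs against nutlin, 5 were below 0 in the interaction and 6 in the line difference of the GSK2830371 response. With library size alone, 1 gene fell in TPC1 with GSK2830371, 2 fell in K1 with nutlin, 1 was below 0 in the K1 interaction and 5 in the line difference with both drugs. With filterByExpr, 2 rose in TPC1 with both drugs against nutlin and 1 fell in K1 with nutlin. With the DESeq2 Wald test, 2 rose in K1 with both drugs, and 4 were below 0 in the K1 interaction and in the line difference of the GSK2830371 response. Counts over all genes also moved under these settings, and the cause of these changes was not tested.

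With 2 libraries a group, K1 changes near 1.5-fold depend on single libraries, and EBP and ABCG1 of K1 are limited by depth.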

Other observations

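EBP lies on chromosome X of GRCh37 at 48380187 to 48387104. The low EBP count of K1 was looked at beside its neighbours on that chromosome, which were chosen after the EBP values were seen. With DMSO, EBP had 1638 and 3503 reads in the TPC1 libraries and 13 and 13 in those of K1. PORCN, which lies before EBP, was at 10.3 and 12.8 CPM in TPC1 and 13.5 and 13.1 in K1. TBC1D25, which lies after it, was at 17.7 and 18.4 CPM in TPC1 and 18.7 and 18.5 in K1. FTSJ1, RBM3 and WDR13 were also read in both lines, RBM3 at 313 and 359 CPM in TPC1 and 198 and 212 in K1. None of the 5 neighbours compared was near 0 in K1. The cause of the low EBP count was not tested.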
